A study of Mus musculus with 18 samples.

Results

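Mammary tumors that carried the p53 missense mutant R245W over a null allele were compared with tumors that had lost p53 altogether, across the protein-coding genes. The comparison held 5 MaP R245W/- tumors and 6 MaP -/- tumors, 11 of the 18 tumors of the series, all sequenced on the NovaSeq instrument as ribosome-depleted total RNA. Of 57126 genes in the count table, 21685 were protein-coding by their Ensembl identifier, and 14809 of those had enough counts to be tested. The question was which coding genes differ between a tumor that keeps the mutant protein and a tumor with no p53 protein.

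Both groups came from female F1 hybrid mice of BALB/c and C57BL6/J parents whose mammary gland was injected with adenovirus carrying Cre recombinase (Ad-Cre) when they were 10 to 12 weeks old. Cre recombined the conditional Trp53 alleles only in cells the virus reached, so stroma, vessels and immune cells of each tumor kept their unrecombined Trp53. The MaP R245W/- tumors were JM1233, JM1564, RM0014, JM1126 and JM1133, from 5 mice, and their values are given in that order throughout. JM1233, JM1564 and RM0014 also carried the Rosa26 LSL-TdTomato/+ reporter, which no MaP -/- tumor carried. The MaP -/- tumors were JM836-T1, JM663-T1, JM663-T2, JM833-T1, JM833-T2 and JM779-T1, from 4 mice, since JM663 and JM833 each gave a pair of tumors. The study typed every one of these tumors as triple-negative from the transcripts of the estrogen receptor, the progesterone receptor and HER2. The study's list of tumors marks the other tumor of mice JM836 and JM779, T2, as the sequenced one, while the labels of these libraries say T1, so which tumor of each mouse they hold is uncertain, and histology was not used.

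p53 is a transcription factor that stabilizes under DNA damage and other stress and switches on genes for cell cycle arrest, repair and death. R245W lies in the DNA-binding domain, where missense changes impair normal target activation, and the mutant protein often accumulates in tumors. In a whole tumor, transcript levels also follow the mix of tumor cells with muscle, fat and lymphoid cells, and a lower level from fewer cells of a type cannot be told apart from less RNA per cell. Interferons signal through STAT proteins to a DNA motif, the interferon-stimulated response element, that lies near the start of many antiviral genes. Ifi44l and the Ifi200 family of DNA sensors are known interferon-inducible genes.

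Genes of that kind lay at both ends of the comparison, and their start regions are shown for that reason. Each sequence below is the stretch of 250 bases before the annotated start in GRCm39, read 5′ to 3′ on the strand of the gene, with the response element core GAAANNGAAA, searched on both strands, in capitals. Ifi206, Ifi208 and Ifi213 had lower levels in MaP R245W/-, Ifi209 lies between Ifi213 and Ifi208 in the same cluster, and Ifi44l had the smallest p-value of all coding genes in the other direction. The windows are chr1:173318874-173319123 on the minus strand for Ifi206, chr1:173426882-173427131 on the minus strand for Ifi213, chr1:173458130-173458379 on the plus strand for Ifi209 and chr3:151468530-151468779 on the minus strand for Ifi44l.
Ifi206: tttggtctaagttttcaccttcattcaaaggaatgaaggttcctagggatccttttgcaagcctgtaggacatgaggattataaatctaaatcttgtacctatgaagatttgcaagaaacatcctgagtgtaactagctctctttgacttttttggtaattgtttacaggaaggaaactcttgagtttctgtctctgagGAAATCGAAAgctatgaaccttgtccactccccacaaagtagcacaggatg
Ifi213: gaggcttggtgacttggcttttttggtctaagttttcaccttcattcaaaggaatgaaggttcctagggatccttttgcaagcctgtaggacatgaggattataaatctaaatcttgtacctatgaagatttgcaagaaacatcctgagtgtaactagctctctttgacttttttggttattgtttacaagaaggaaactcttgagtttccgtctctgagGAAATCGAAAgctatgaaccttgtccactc
Ifi209: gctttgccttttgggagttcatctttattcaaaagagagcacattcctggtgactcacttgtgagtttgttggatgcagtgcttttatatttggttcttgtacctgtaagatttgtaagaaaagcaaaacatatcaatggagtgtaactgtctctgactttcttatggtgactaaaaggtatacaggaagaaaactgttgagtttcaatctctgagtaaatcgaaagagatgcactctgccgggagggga
Ifi44l: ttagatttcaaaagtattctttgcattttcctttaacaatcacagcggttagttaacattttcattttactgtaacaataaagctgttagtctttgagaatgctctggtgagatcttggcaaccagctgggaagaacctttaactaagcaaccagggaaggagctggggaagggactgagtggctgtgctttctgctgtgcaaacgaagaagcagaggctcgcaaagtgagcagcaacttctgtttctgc

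The core lay 51 bases before the start of Ifi206, 68 before that of Ifi208 and 30 before that of Ifi213, each time as GAAATCGAAA. Aligned without gaps, the windows of Ifi206 and Ifi208 matched at 232 of 233 shared positions, those of Ifi206 and Ifi213 at 226 of 229, and those of Ifi208 and Ifi213 at 210 of 212. The windows of Ifi209 and Ifi44l held no exact copy of the core. That of Ifi209 held taaatcgaaa after ctctgag, where the other Ifi200 windows shown held GAAATCGAAA, so only the first base differed. The core stood in 3.2% of the 14809 coding promoters, in 9 of the 13 Ifi200 genes (69.2%) and in 19 of 52 interferon-stimulated genes (36.5%). A letter match describes a sequence and does not show a bound factor.

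Trp53 itself was compared first. Trp53, on chromosome 11 at 69469669 to 69482701 of the plus strand, stood at 11.3, 26.9, 9.0, 27.5 and 58.4 CPM, counts scaled to a common library total, in the MaP R245W/- tumors. In MaP -/- it ranged from 9.37 to 21.7 CPM with a median of 12.1. JM1564, JM1126 and JM1133 lay above every MaP -/- tumor, JM1233 lay among them, and RM0014 lay just below the lowest. The mean log2 CPM was 4.42 in MaP R245W/- and 3.73 in MaP -/-, a difference of 0.69 (two-sided exact permutation test over 462 splits, p = 0.221, where the smallest p possible is 0.004329). The splits, here and for Nr5a2, took the paired tumors of mice JM663 and JM833 as separate tumors. The p-values are thus exact over tumors and not over mice. The edgeR fit gave a log2 fold change of 0.95 (SE 0.44, FDR 0.426), and 0.45 without JM1133. MaP -/- tumors thus held Trp53 reads. The counts are totals over the gene, so deleted and retained exons cannot be told apart, and the level does not check the genotype.

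Nr5a2, a nuclear receptor that the study followed in these models, stood at 5.97, 8.68, 1.53, 2.48 and 2.46 CPM in MaP R245W/-, against 1.47 to 4.88 CPM with a median of 2.47 in MaP -/-. JM1233 and JM1564 lay above the MaP -/- range and the other 3 tumors lay within it. The difference in mean log2 CPM was 0.31 (two-sided exact permutation test, p = 0.519), and the edgeR log2 fold change of 0.48 became 0.04 without JM1564. A list of 15 genes held Nr5a2 itself, targets of it and bile acid genes, and 6 were tested, Nr5a2 among them. Star, which carries cholesterol into mitochondria for steroid synthesis, was the only 1 of the 6 with p below 0.05 in edgeR. It had a log2 fold change of -0.59, an FDR of 0.38 and groups that did not overlap. Over all coding genes 2.75% were lower at p below 0.05.

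No coding gene passed an FDR of 0.05 with an absolute log2 fold change of at least 1 in edgeR (0% of genes tested). The smallest FDR was 0.139, for Ifi44l, and the next was 0.257, for Ifi206. At an unadjusted p below 0.05, 1018 coding genes had higher levels in MaP R245W/- (6.87%) and 407 had lower levels (2.75%). These 2 shares are the background for every list below, and limma-voom gave 844 (5.7%) and 319 (2.15%) genes with none at an FDR of 0.05. DESeq2, the tool of the study, called 72 genes higher and 70 lower (0.467% and 0.454% of 15426 genes). Fitted again on only the genes that passed the edgeR filter, it called 43 and 55 (0.296% and 0.379% of 14528). Of the 142 calls of the first DESeq2 fit edgeR tested 104, 49 higher and 55 lower. All 104 had p below 0.05 in edgeR, and in 23 of them the groups did not overlap.

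Higher genes were many and differed by little, lower genes fewer and by more. The median absolute log2 fold change was 0.66 among the 1018 and 1.45 among the 407. A log2 difference of at least 1 was reached by 262 of the higher genes (25.7%) and by 270 of the lower ones (66.3%). Counting groups that did not overlap, every MaP R245W/- tumor lay above every MaP -/- tumor in 96 genes (0.648%) and below in 39 (0.263%).

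The balance of directions depended on the genes in the fit. Over all coding genes the median log2 fold change was 0.12, and 9277 were above 0 (62.6%) and 5532 below (37.4%). The 6643 tested genes of other biotypes had a median of -0.34, with 123 higher (1.85%) and 979 lower (14.7%) at p below 0.05. Fitted with coding genes alone, the median was 0.02, and 596 genes were higher (4.02%) and 557 lower (3.76%) at p below 0.05, so the share of higher genes went from 71.4% to 51.7%. Fold changes near 0.12 thus equal the shift of all coding genes. Medians from both fits are given for the Ifi200, respiratory chain, mitochondrially encoded, cytosolic ribosomal and cholesterol lists. Other list medians are from the fit of all genes unless stated.

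**Figure D1:**
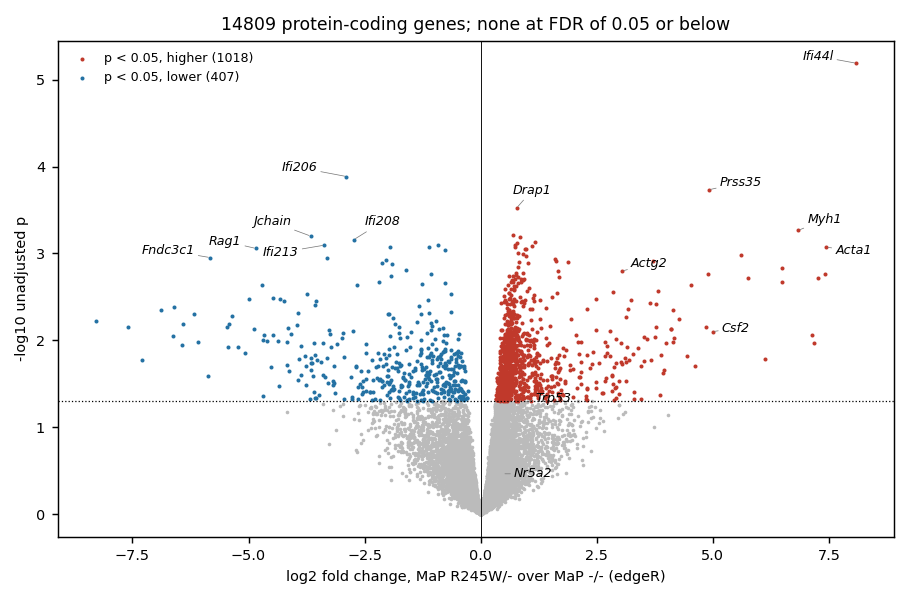
Each point is 1 of 14809 protein-coding genes, with the edgeR log2 fold change of MaP R245W/- over MaP -/- on the x axis and -log10 of the unadjusted p on the y axis. The 1018 red genes were higher and the 407 blue genes lower at p below 0.05 (dotted line), the red genes crowd near 0 and Ifi44l stands alone at the upper right.

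Ifi44l, an interferon-inducible antiviral gene on chromosome 3 at 151464374 to 151468529, was at 5.35, 8.75, 9.43, 3.94 and 46.7 CPM in MaP R245W/-. In MaP -/- it ranged from 0 to 0.136 CPM with a median of 0.0361, which is a few reads at most. All 5 mutant tumors were far above all 6 null tumors, with JM1133 the highest. The edgeR log2 fold change was 8.09 (SE 1.05, FDR 0.139), a size that depends on the handling of counts near 0, and without JM1133 it was 6.99. DESeq2 gave an adjusted p of 7.13e-15. Its neighbor and paralog Ifi44, named here after its values were seen, had a log2 fold change of 0.26 (FDR 0.917) and 16.6, 49.5, 76.0, 17.0 and 373 CPM against 24.2 to 229.9 CPM in MaP -/-. Without JM1133 the direction of Ifi44 turned, to -1.15. The groups overlapped in Ifi44 and were far apart in Ifi44l.

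Prss35, which encodes an inactive serine protease, was at 51.2, 1.57, 13.9, 11.6 and 1.70 CPM in MaP R245W/- and at 0.128 to 0.819 CPM, median 0.551, in MaP -/-. The groups did not overlap, and the lowest mutant tumors, JM1564 and JM1133, were still above the highest null tumor. Its log2 fold change was 4.91 (SE 0.92, FDR 0.263), and 3.76 without JM1233. Add2, a subunit of the membrane skeleton protein adducin, had a log2 fold change of 3.17 (SE 0.90, FDR 0.36), with 58.6 CPM in JM1126 and 2.15 to 9.77 CPM in the other 4 mutant tumors, and 1.61 without JM1126.

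Several genes differed by less and much more evenly. Drap1, a repressor of transcription initiation that works with Dr1, was at 58.3, 69.0, 85.2, 68.3 and 83.6 CPM against 36.0 to 50.0 CPM, median 42.6, in MaP -/- (log2 fold change 0.77, SE 0.15, FDR 0.33). Cotl1, which binds actin filaments, was at 156, 148, 232, 213 and 259 CPM against 88.9 to 128 CPM, median 113. Cyba, the p22 subunit of the NADPH oxidase, was at 129, 153, 141, 140.3 and 194 CPM against 63.7 to 106 CPM, median 93.6. In all 3 the lowest mutant tumor was above the highest null tumor, with no single tumor standing apart. The log2 fold changes were 0.84 for Cotl1 (SE 0.18) and 0.78 for Cyba (SE 0.17), each with an FDR of 0.33.

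The groups were also apart for Aga, a lysosomal enzyme that cleaves sugar chains from asparagine, at 41.2, 33.7, 32.5, 34.7 and 32.5 CPM against 18.1 to 25.6 CPM (log2 fold change 0.70). Vopp1, a vesicle protein, was at 39.7, 56.4, 39.5, 82.1 and 43.5 CPM against 15.3 to 31.1 CPM (log2 fold change 1.16), and Bcar3, an adaptor of adhesion signaling first known from antiestrogen resistance, was at 49.9, 116, 65.5, 127 and 64.4 CPM against 32.2 to 46.8 CPM (log2 fold change 1.11). Ift20 of intraflagellar transport and Tmed3 of the early secretory pathway each had a log2 fold change of 0.74. None of these 5 genes overlapped between the groups, each had an FDR of 0.33, and JM1233 stood above the other mutant tumors in Aga.

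Among the genes without overlap, 4 more had large differences. Actg2, smooth muscle gamma actin, was at 103, 16.2, 22.1, 90.6 and 21.1 CPM against 0.32 to 10.5 CPM, median 6.47, in MaP -/- (log2 fold change 3.04, SE 0.75, FDR 0.36). Srd5a1, which reduces testosterone to dihydrotestosterone, was at 12.1, 32.6, 7.35, 39.1 and 8.24 CPM against 4.17 to 7.14 CPM (log2 fold change 1.88, SE 0.44, FDR 0.334). Aldh2, the mitochondrial enzyme that clears acetaldehyde, was at 177, 197, 196, 267 and 187 CPM against 55.1 to 165 CPM, median 85.4 (log2 fold change 1.03, SE 0.27, FDR 0.36). JM1233 and JM1126 held the highest Actg2, JM1564 and JM1126 the highest Srd5a1, and Aldh2 was nearly level across 4 of the mutant tumors. The fourth, Srp54a of the signal recognition particle, shares most of its sequence with Srp54b and Srp54c, so its log2 fold change of 1.59 is uncertain. The 3 copies summed gave 16.0 to 27.5 CPM in MaP R245W/- and 12.7 to 15.8 CPM in MaP -/-, again without overlap.

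**Figure D2:**
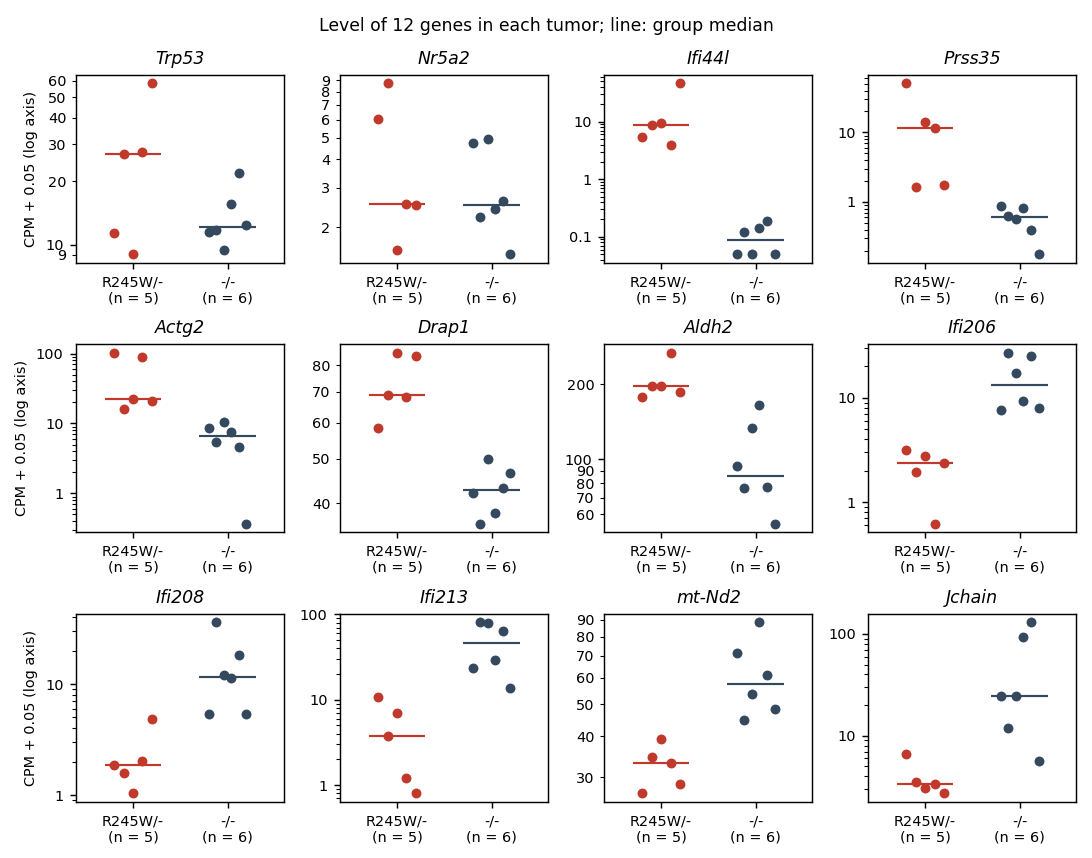
Each panel shows 1 gene, with CPM plus 0.05 on a log axis, a point for each tumor and a line at the group median (red, 5 MaP R245W/- tumors, dark, 6 MaP -/- tumors). Trp53 and Nr5a2 overlap between the groups and the other genes do not, except that the lowest Jchain value in MaP -/- lies below the highest in MaP R245W/-.

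The lower genes were led by a tandem family on chromosome 1. Ifi206 (173296051 to 173318873, minus strand) was at 3.09, 1.90, 2.73, 0.573 and 2.31 CPM in MaP R245W/- and at 7.67 to 27.1 CPM, median 13.3, in MaP -/- (log2 fold change -2.89, SE 0.52, FDR 0.257). Ifi208 was at 1.81, 1.53, 0.994, 1.97 and 4.76 CPM against 5.30 to 36.0 CPM, median 11.6 (log2 fold change -2.73, SE 0.60, FDR 0.33). Ifi213 was at 10.7, 3.71, 6.96, 1.18 and 0.756 CPM against 13.8 to 80.9 CPM, median 46.5 (log2 fold change -3.37, SE 0.75, FDR 0.33). All 3 had groups that did not overlap. These are related genes with near-identical start regions, and the counting could split reads that they share, which was not measured here, so the split between them is uncertain. Their sum was 15.6, 7.15, 10.7, 3.72 and 7.82 CPM in MaP R245W/- against 27.2 to 144 CPM, median 78.5, in MaP -/-.

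The whole Ifi200 cluster runs along the chromosome as Aim2, Ifi206, Ifi214, Ifi213, Ifi209, Ifi208, Ifi207, Ifi204, Mndal, Ifi211, Ifi203, Ifi202b and Ifi205. Of the 13, 12 had negative log2 fold changes, and Ifi206, Ifi213, Ifi209, Ifi208, Ifi207 and Ifi205 had p below 0.05 (6 of 13, against the background of 2.75%). The median was -1.28, and -1.38 with coding genes alone. Summed without Ifi202b, the other 12 genes were at 89.8 to 568 CPM in MaP R245W/- and 273 to 1011 CPM in MaP -/-. The groups thus overlapped in that sum. Ifi209 had a log2 fold change of -1.92 (FDR 0.341), with 21.4, 5.46, 8.12, 13.7 and 9.18 CPM against 19.6 to 73.1 CPM. JM1233 alone lay inside the null range. Aligned without gaps at the best offset, the start region of Ifi209 shared 39.8% to 42.1% of positions with those of Ifi206, Ifi208 and Ifi213. That of Ifi44l, on chromosome 3, shared 35.5% to 37.3% with the same 3. Such an alignment misses related stretches that are shifted by inserted or lost bases, so the share of Ifi209 is a lower limit.

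Ifi202b went the other way. This p202 gene, whose product opposes Aim2, was at 0.594, 9.67, 33.4, 119 and 173 CPM in MaP R245W/- and at 0.261 to 16.4 CPM, median 2.49, in MaP -/- (log2 fold change 3.67, SE 1.32, FDR 0.362). RM0014, JM1126 and JM1133 lay above all null tumors and JM1233 near their low end. Without both JM833 tumors the log2 fold change was 3.33 (FDR 0.75).

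The remaining interferon-stimulated genes gave no such separation. Of 52, 7 had positive log2 fold changes, none was higher and 3 were lower at p below 0.05, with a median of -0.38. Oas2, which makes the activator of RNase L, was the clearest, at 11.2, 5.16, 14.0, 9.48 and 52.3 CPM against 15.8 to 121 CPM (log2 fold change -1.79, SE 0.68, FDR 0.375). JM1133 moved the list most. Its mean log2 CPM over the 52 genes was 7.39, beside 4.28 to 5.68 in the other mutant tumors and 5.35 to 7.43 in MaP -/-. Without JM1133 the median was -1.22 and 33 genes were lower at p below 0.05. Without JM663-T1, the highest null tumor, it was -0.08 and 0 genes were. The Ifi200 median moved less, between -1.58 and -1.05 with any 1 tumor left out. With the reporter allele as a covariate the Ifi200 median was -0.70 and that of the interferon-stimulated list 0.13. With the tumors of each mouse summed they were -0.98 and -0.17.

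Other lower genes lay outside that cluster. Jchain, which joins the subunits of secreted antibodies, was at 6.56, 3.47, 3.04, 3.34 and 2.68 CPM against 5.56 to 130.5 CPM, median 24.3 (log2 fold change -3.66, SE 0.79, FDR 0.33). Rag1, the recombinase of developing lymphocytes, was at 0 to 0.119 CPM against 0.0959 to 4.66 CPM (log2 fold change -4.84). Ly6d, a surface protein of squamous and early B-lineage cells, was at 0.369 to 2.95 CPM against 1.84 to 24.8 CPM (log2 fold change -3.31), and Fndc3c1, an X-linked gene of the fibronectin type III family, was at 0.0307 to 0.795 CPM against 0.237 to 62.0 CPM (log2 fold change -5.83). In each of these 4 genes 1 or more mutant tumors reached into the null range.

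The groups were apart for Actl7a, an actin-like gene of the testis, at 0.312 to 0.505 CPM against 0.686 to 1.05 CPM, and for Tmem30c at 0.159 to 0.596 CPM against 0.799 to 2.33 CPM. Both are near the floor of these libraries. Pakap, a locus that gives paralemmin and A-kinase anchoring transcripts under several gene records, was at 0.215 to 0.945 CPM against 1.18 to 4.54 CPM, and the counting could split it among those records. Cacna1e, a calcium channel subunit, was at 0.265 to 1.37 CPM against 1.41 to 39.8 CPM (log2 fold change -4.24), and Lipm, a lipase of keratinocytes, was at 0.0297 to 0.227 CPM against 0.352 to 7.41 CPM (log2 fold change -3.56). The last 2 had wide null ranges, and without both JM833 tumors their log2 fold changes were -1.17 and -1.42. The mutant values of Lipm were near the floor as well.

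Rere, a nuclear receptor corepressor with a wide genomic span, was well expressed and separated, at 61.7, 59.3, 45.7, 56.6 and 46.3 CPM against 71.5 to 125 CPM, median 89.1 (log2 fold change -0.77, SE 0.18, FDR 0.33). Picked out after their values were seen, 4 more chromatin regulators were among the 39 lower genes without overlap: Kat6a, a histone acetyltransferase, at -0.50, Spen, a corepressor, at -0.47, Kmt2d, a histone methyltransferase, at -0.47, and Ep300, the p300 acetyltransferase, at -0.33 on the log2 scale. On the same basis, Srf, which drives actin genes (0.59), Mta2 of the NuRD complex (0.52) and Prmt5, an arginine methyltransferase (0.41), were among the 96 higher genes. All of these have fold changes under 2 and FDRs of 0.36 to 0.384 where not given above. Chromatin regulators were not counted as a class. No share of them can thus be set beside the 0.263% lower and 0.648% higher without overlap over all coding genes.

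Nuclear genes of the respiratory chain had mostly positive log2 fold changes. In complex I of the respiratory chain 35 of 36 subunit and assembly genes had positive log2 fold changes and 13 had p below 0.05, with none lower, and in complexes II to V these were 38 of 39 and 20. The medians were 0.45 and 0.42, and 0.35 and 0.32 with coding genes alone, where 9 and 14 genes had p below 0.05. The counts were 8 for complex I without JM1133 and 11 for complexes II to V without both JM833 tumors. With the reporter allele as a covariate they were 11 for complex I and 10 for complexes II to V. Ndufa11, an accessory subunit of complex I, was at 22.5, 34.3, 24.9, 19.1 and 27.9 CPM against 11.1 to 17.3 CPM (log2 fold change 0.83, SE 0.20, FDR 0.334). Uqcr11 of complex III was at 52.2, 57.2, 67.1, 51.5 and 92.1 CPM against 33.7 to 43.7 CPM (log2 fold change 0.70). Both were without overlap, as were Ndufb7 (0.70), Ndufv1 (0.63) and Atp5me (0.46). Ndufs8 of complex I (0.86) and Atp5f1e of the ATP synthase (0.77) had overlapping groups, in Atp5f1e by a margin of under 1 CPM.

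The mitochondrially encoded subunits of the same complexes had no such common direction. Of 13, 11 were tested and 4 had positive log2 fold changes, with a median of -0.23. That median was -0.33 with coding genes alone, -0.015 without JM1233 and JM1133, and 0.08 with a muscle score as a covariate. The summed CPM of the list was 4665 to 7907, median 6126, in MaP R245W/-. In MaP -/- it was 4547 to 8442, median 5341. mt-Nd2 was at 26.8, 34.6, 39.2, 33.1 and 28.6 CPM against 44.8 to 88.6 CPM, median 57.4 (log2 fold change -0.92, SE 0.20, FDR 0.33), without overlap. mt-Nd4 (-0.90) and mt-Nd5 (-0.72), both of complex I as well, also had p below 0.05. mt-Co1, the catalytic subunit of cytochrome oxidase, stood at 0.17 (FDR 0.815). The 3 genes with p below 0.05 all belonged to complex I. The share of complex I genes among the 11 tested was not set beside this.

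Translation genes were also mostly positive. Of 79 cytosolic ribosomal proteins 75 had positive log2 fold changes and 36 had p below 0.05, with a median of 0.51, and 0.40 with coding genes alone, where 23 had p below 0.05. Fau, which encodes ribosomal protein S30, was at 129.6, 181, 234, 171 and 335 CPM against 89.9 to 134 CPM (log2 fold change 0.91), and Rplp1 of the ribosomal stalk was at 486, 579, 473, 589 and 898 CPM against 204 to 496 CPM (log2 fold change 0.95). JM1133 was the highest in both, and without JM1133 the count at p below 0.05 was 14 and the median 0.34, and without both JM833 tumors they were 11 and 0.36. The mitochondrial ribosome had 74 of 77 genes positive and 20 with p below 0.05, with Mrpl54 at 26.7 to 30.9 CPM against 15.7 to 24.6 CPM. That count was 9 with coding genes alone, 10 without RM0014, 30 without JM1126 and 8 without both JM833 tumors. With the reporter allele as a covariate it was 6, while the count of the cytosolic ribosomal proteins was 41.

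Proteasome and sterol genes had positive log2 fold changes as well. All 32 proteasome subunits had positive log2 fold changes, 6 with p below 0.05. That count was 3 with coding genes alone and 2 without both JM833 tumors. Psmd3 of the regulatory lid was at 116, 123, 182, 119 and 158 CPM against 85.5 to 107 CPM (log2 fold change 0.52). In cholesterol biosynthesis all 25 were positive and 12 had p below 0.05, with a median of 0.51, and 0.41 with coding genes alone. Among them Mvd, which makes isopentenyl pyrophosphate, was at 22.0, 33.1, 30.5, 34.6 and 46.4 CPM against 14.3 to 22.8 CPM (log2 fold change 0.90, FDR 0.334). Stard4, a sterol carrier, was the only member of the 25 without overlap. Cytosolic chaperones showed no such balance, with 12 of 23 positive and none at p below 0.05.

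Of the Lamtor subunits that hold mTORC1 at the lysosome, 2 of 5 had groups that did not overlap, each with an FDR of 0.36. These 5 were set apart after values were seen. In the list of 29 mTORC1 and amino acid transport genes 2 were higher without overlap, and over all coding genes 0.648% were. Lamtor1 was at 57.4, 78.7, 85.4, 74.2 and 77.9 CPM against 48.3 to 57.0 CPM, and Lamtor4 at 32.7, 29.9, 30.1, 29.2 and 29.5 CPM against 18.7 to 26.6 CPM, each with a log2 fold change of 0.53. The gap was wider for Lamtor4 than for Lamtor1. Lamtor2 (0.47), Lamtor5 (0.11) and Lamtor3 (-0.05) did not have p below 0.05. Of 29 mTORC1 and amino acid transport genes 4 had, 2 without RM0014 and 8 without JM1233. Glycolysis had 17 of 20 genes positive and 1 at p below 0.05, and the citric acid cycle 14 of 16 and 3.

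Growth and damage programs showed less. None of 35 replication genes and none of 28 mitosis genes had p below 0.05, with medians of 0.18 and 0.17 near the median of all coding genes. Among 27 targets of p53, 17 were positive and Plk2, a stress-induced kinase, was the only one with p below 0.05, at 169, 271, 253, 233 and 176 CPM against 113 to 187 CPM (log2 fold change 0.60). Cdkn1a, the p21 cell cycle inhibitor, had a log2 fold change of 0.01 (SE 0.52) and Mdm2, the p53 ligase, -0.13 (SE 0.21). Without JM1126, at 40.2 CPM the highest tumor, Cdkn1a stood at -0.82. The SE of Cdkn1a is wide enough that a doubling could not be told from no difference.

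**Figure D3:**
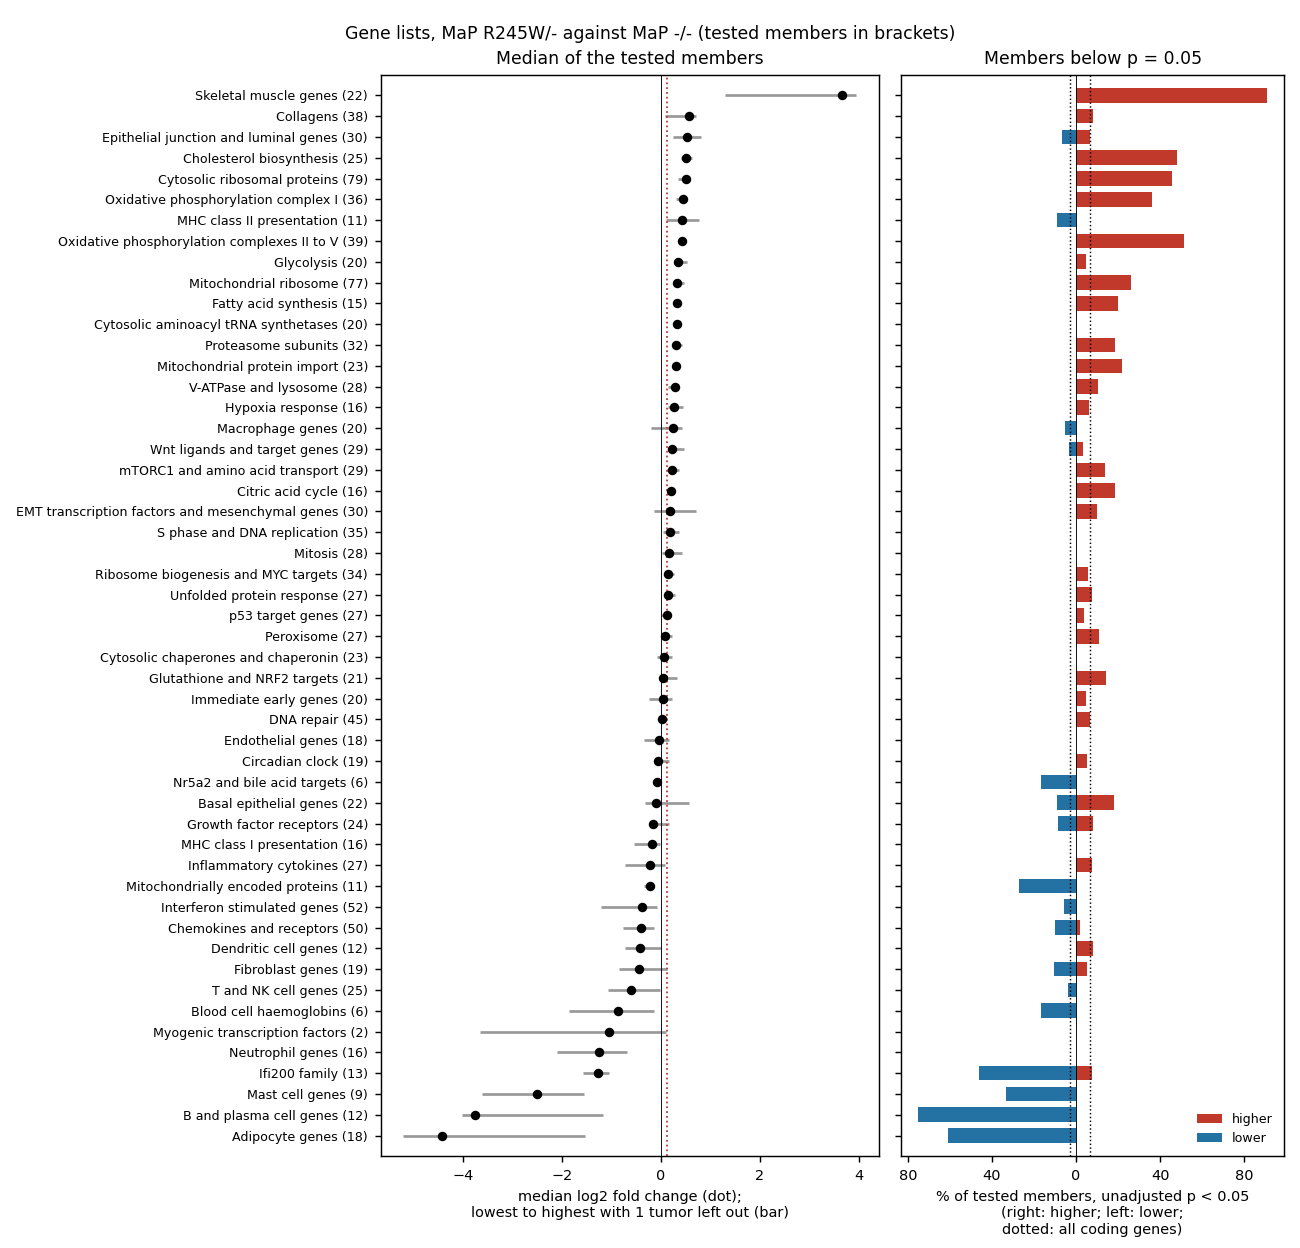
For each of 51 gene lists, with the number of tested members in brackets, the left panel shows the median log2 fold change (dot) and its lowest and highest value with any 1 tumor left out (bar), and the right panel the percent of members at p below 0.05. Dotted lines are the values over all coding genes, 0.12 on the left and 6.87% and 2.75% on the right; cell type lists have the long bars and the respiratory and ribosomal lists short ones.

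The 3 lists with the largest absolute medians hold markers of muscle, fat and B cells, and 1 tumor or 1 mouse made much of each difference. Skeletal muscle genes were higher at p below 0.05 in 20 of the 22 tested, of 34 listed, with a median of 3.65. Acta1, skeletal alpha actin, was at 474, 2.27, 0.71, 17.6 and 68.8 CPM against 0.0722 to 2.48 CPM, and the fast myosin chains Myh1 (6.84) and Myh4 (6.49) followed the same tumors. Without JM1233 the log2 fold changes were 5.12 for Acta1, which was 7.44 with it, 4.89 for Myh1 and 4.99 for Myh4. Over the 34 genes the summed CPM was 8578 in JM1233, 762 in JM1133 and 416 in JM1126, while the other 8 tumors held 65.5 to 199. Without JM1233 the median was 1.3 with 13 genes at p below 0.05, and without JM1233 and JM1133 it was 0.78 with 7. Ankrd2, a stretch-response gene of muscle, had too few counts to be tested and stood at 13.3 CPM in JM1233.

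Adipocyte genes were lower in 11 of 18 tested, with a median of -4.42. Cidec, a lipid droplet protein, ranged from 0.113 to 1.13 CPM in MaP R245W/- and from 0.0372 to 314 CPM, median 3.33, in MaP -/-. The summed CPM of the list was 11059 in JM833-T1 and 1232 in JM833-T2. Without JM833-T1 the median was -1.54 with 5 genes at p below 0.05, and without both tumors of mouse JM833 it was -0.14 with 1. Adipoq and Plin1, the defining fat markers, were below 4 CPM in all 5 mutant tumors.

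B and plasma cell genes were lower in 9 of 12 tested, none had a positive log2 fold change, and the median was -3.77. Pou2af1, a coactivator needed for germinal centers, was at 0.238, 0.430, 0.369, 0.254 and 0.567 CPM against 0.867 to 47.4 CPM, median 1.57, and Cxcr5, the follicle homing receptor, at 0.199 to 0.356 CPM against 0.447 to 19.9 CPM. Both groups of values were apart, but the log2 fold change of Pou2af1 went from -4.71 to -2.61 without JM833-T2, and the list median to -1.18 with 6 genes. Without both JM833 tumors it was -0.80 with 3. Ms4a1 and Cd79a, further B cell genes, had log2 fold changes of -5.37 and -3.59, and -2.03 and -1.18 without JM833-T2. Cxcr5 went from -3.93 to -1.76 without JM833-T2. Jchain stood at -3.07 without JM833-T2 and at -2.10 without both JM833 tumors.

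Mast cell genes had a median of -2.50 and 3 of 9 at p below 0.05, or -0.57 and 0 without both JM833 tumors, and T and NK cell genes -0.60 and 1 of 25. The T and NK median was -0.02 without JM833-T2, and -1.07 with 9 genes at p below 0.05 without JM1233. In the chemokine list 1 of 50 was higher and 5 were lower. Ccl17, a T cell attractant, was at 3.39, 0.276, 0.17, 32.4 and 0.643 CPM against 0.149 to 0.744 CPM (log2 fold change 4.26), and the log2 fold change was 1.56 without JM1126. The growth factor Csf2 (5.0) and the cytokine Il1a (2.92) behaved alike, with 32.4 and 84.2 CPM in JM1126 and levels within or close to the null range in the other mutant tumors. Without JM1126 their log2 fold changes were 0.63 and 0.38.

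**Figure D4:**
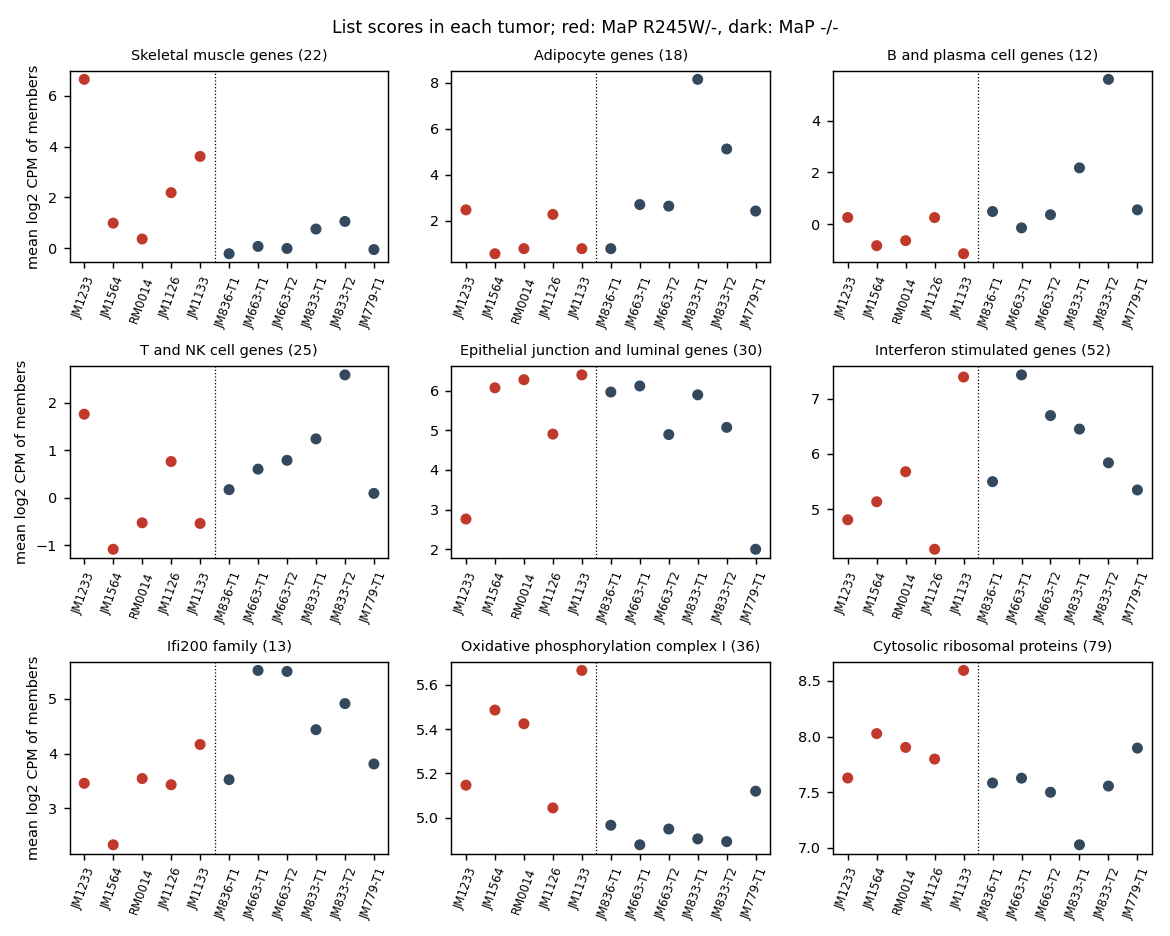
Each panel shows the mean log2 CPM of the tested members of 1 list (number in brackets) in each of the 11 tumors, red for MaP R245W/- and dark for MaP -/-. Muscle genes peak in JM1233, fat genes in JM833-T1, B and plasma cell genes in JM833-T2, and epithelial genes are low in JM1233 and JM779-T1, and the respiratory score spans 4.88 to 5.66 and the ribosomal score 7.03 to 8.59.

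The tumors were checked against epithelial markers. The mean log2 CPM of 30 junction and luminal genes was 2.76 in JM1233 and 2.0 in JM779-T1 and 4.89 to 6.40 in the other 9 tumors, so each group held 1 tumor with low epithelial expression. Krt18 and Krt8, the paired luminal keratins, had log2 fold changes of 1.69 and 1.70. Krt18 was at 154, 2588, 1768, 1394 and 1259.9 CPM against 82.8 to 783 CPM, so 4 mutant tumors lay above all null tumors and JM1233 among the lowest. Foxa1, a pioneer factor of luminal cells, and Pgr, the progesterone receptor, had log2 fold changes of -2.47 and -2.35 and were at most 1.02 CPM in MaP R245W/-, and without JM833-T1 these were -1.96 and -1.18. Esr1 (-0.67, SE 0.64) and Erbb2 (0.53, SE 0.51) differed by about the size of their standard errors.

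Basal and matrix genes varied widely among tumors of both groups. Krt6a and Krt5, keratins of basal and squamous cells, had log2 fold changes of -4.34 and -3.67, which were -0.32 for Krt6a without JM663-T2 and -1.53 for Krt5 without JM833-T1. Of 38 collagens 29 were positive and 3 had p below 0.05. Col1a1 was at 2708, 651, 1169, 7453 and 928 CPM against 360.4 to 1141 CPM, and its log2 fold change of 1.77 was 0.85 without JM1126, when the list median went from 0.56 to 0.08. Among growth factor receptors Fgfr3 was lower, at 4.90, 2.55, 2.92, 3.12 and 2.19 CPM against 3.41 to 18.6 CPM (log2 fold change -1.94), with JM1233 alone inside the null range, and Pdgfrb had a log2 fold change of 1.14, and 0.71 without JM1126. Of the blood genes Alas2, which starts heme synthesis in red cells, had a log2 fold change of -1.28 and was the only 1 of 6 with p below 0.05.

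Gene span went with the direction of the difference. In the quintile of coding genes with the shortest genomic span (312 to 9353 bases) the median log2 fold change was 0.26, and 417 genes were higher (14.1%) and 83 lower (2.80%) at p below 0.05. In the quintile with the longest span (74925 to 2961610 bases) the median was 0.01, with 93 higher (3.14%) and 109 lower (3.68%). With coding genes alone the medians were 0.16 and -0.09. The count of higher genes in the shortest quintile was 265 without JM1133 and 527 without JM1233. Ribosomal, respiratory and proteasome genes are short as a class, and the part of span in their fold changes was not tested.

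Chromosome 19 had the highest share of higher genes. Of its 517 tested genes 105 were higher (20.3%) and 8 lower at p below 0.05, the median was 0.35, and 16 of the 96 higher genes without overlap lay there, among them Drap1, Otub1, a deubiquitinase (log2 fold change 0.80), Cfl1, the actin-severing cofilin (0.79), and Ppp1ca, a catalytic subunit of protein phosphatase 1 (0.72). The deviation of each gene from its MaP -/- mean log2 CPM, less the median deviation of all coding genes of that tumor, had a median on chromosome 19 of 0.66 in RM0014, 0.35 in JM1564, 0.30 in JM1133, 0.02 in JM1233 and -0.15 in JM1126, and it lay between -0.32, in JM779-T1, and 0.18 in MaP -/-. The 3 highest tumors were thus mutant and the other 2 mutant tumors were within the null range. The count of higher genes was 61 without RM0014, 144 without JM1233 and 73 with coding genes alone. Chromosome 13 followed with 76 higher genes (13.5%). Chromosome 1, which holds the Ifi200 cluster, had 900 tested genes and 8 of the 39 lower genes without overlap. Ifi206, Ifi208 and Ifi213, between which the split of reads is uncertain, were among these 8. Over all coding genes 0.648% were higher and 0.263% lower without overlap.

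**Figure D5:**
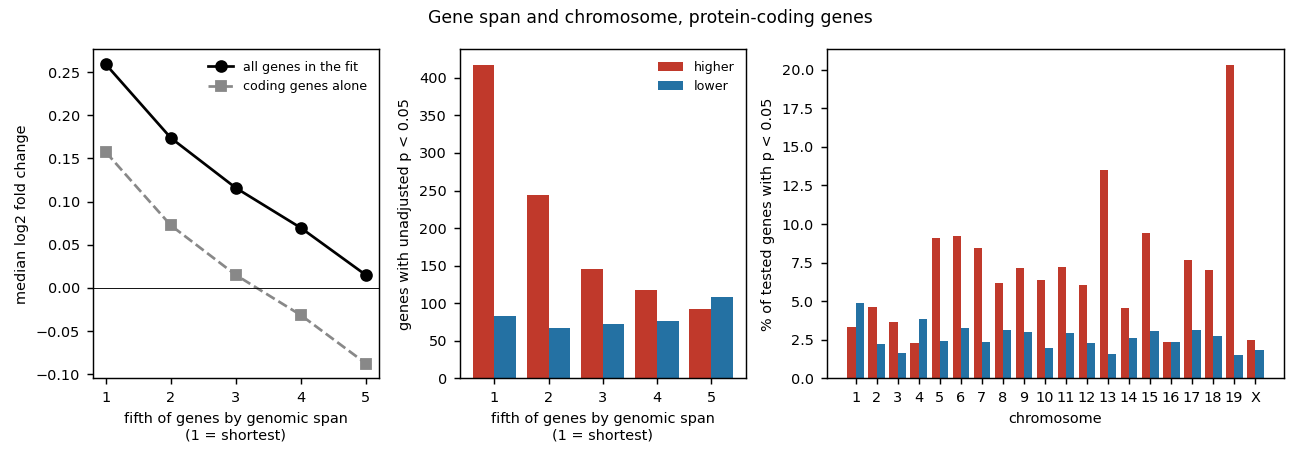
The left panel shows the median log2 fold change of coding genes by quintile of genomic span for the fit of all genes and of coding genes alone, the middle panel the number of genes at p below 0.05 in each quintile, and the right panel the percent of tested genes at p below 0.05 on each chromosome (red, higher, blue, lower, in MaP R245W/-). The median falls from 0.26 to 0.01 with span, and chromosome 19 has 20.3% of its genes higher.

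The libraries held 30030630 to 37365062 counts in MaP R245W/- (median 33581143) and 24736337 to 32085794 in MaP -/- (median 27212265.5), of which 93.9% to 95.0% and 92.1% to 94.8% fell on protein-coding genes. Over coding genes, Spearman correlations between tumors were 0.829 to 0.967 within groups and 0.842 to 0.967 between groups, so both ranges nearly coincided. Tumor pairs of 1 mouse had values of 0.926 (JM663) and 0.934 (JM833), within the same range. They were counted as separate tumors here, and the p-values measure the spread between tumors.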

How the data were processed

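The authors made stranded total RNA libraries after ribosomal depletion (Ribo-Zero Gold), sequenced them with 100-nt paired ends, checked quality with FastQC 0.11.9, aligned to GRCm39 with STAR 2.7.10b and counted with RSEM 1.3.3 on GENCODE M34. The deposited table holds whole-number counts per gene and tumor, not normalized. From these counts, genes passing filterByExpr were fitted with edgeR 4.0.16 (quasi-likelihood, TMM) over the whole table of 11 tumors, with Benjamini-Hochberg adjustment over all 21452 genes tested. Biotypes came from GENCODE by Ensembl identifier. A call needed an FDR of at most 0.05 and an absolute log2 fold change of at least 1. CPM used TMM library sizes, and list scores used log2 CPM with a prior count of 2. SE is the absolute log2 fold change over the square root of F. DESeq2 1.42.0 and limma 3.58.1 (voom) were alternatives. Exact permutation tests were two-sided. The fits were tested on simulated data.

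Genes named were Trp53, Nr5a2, 4 genes the study names, the 12 smallest p in each direction, the 8 largest fold changes without overlap in each direction, and from each list the 2 smallest p and the highest level. Others named (Ifi44, Ifi202b, Ifi209, Adipoq, Plin1, Ms4a1, Cd79a, Krt8, Krt5, Cdkn1a, Mdm2, the chromatin regulators, Srf, Otub1, Cfl1, Ppp1ca and further list members) were chosen after their values were seen. Members and all 51 lists were chosen with earlier results of these data known, so lists are described by counts and medians without a test. Promoter sequences were read from GRCm39. Some list members are not reported here.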

Additional observations from a re-analysis of the deposited data

Results flagged for a closer look

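In 37 genes, each looked at in both groups (74 groups), a single tumor lay far from the rest of its group in 5 cases; chance alone flags about 1 group in 20. Aga was at 41.2 CPM in JM1233 beside 32.5 to 34.7 CPM in the other 4 MaP R245W/- tumors, and Jchain was at 6.56 CPM in JM1233 beside 2.68 to 3.47 CPM. Lipm was at 0.0297 CPM in JM1233, the lowest, beside 0.153 to 0.227 CPM, all near the floor of these libraries. JM1233 is also the tumor with the highest skeletal muscle and low epithelial expression, and the part of that in these 3 values was not tested. Aldh2 was at 267 CPM in JM1126 beside 177 to 197 CPM. In MaP -/-, Actg2 was at 0.32 CPM in JM779-T1 beside 4.61 to 10.5 CPM in the other 5 tumors, and JM779-T1 also had the lowest epithelial score of all 11.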

How the results depend on the processing

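No coding gene was called by edgeR under any alternative except 1, Capn11, a calpain that was lower without JM1564 (log2 fold change -4.40, FDR 0.00817), where JM1564 stood at 4.08 CPM beside 0.0891 to 0.265 CPM in the other mutant tumors. DESeq2 called 72 higher and 70 lower genes and gave 623 lower at p below 0.05. Fitted again on only the genes that passed the edgeR filter, it called 43 and 55, an alternative added after seeing the data. At p below 0.05 the 1018 higher genes became 596 with coding genes alone and 646 with the tumors of each mouse summed. The 407 lower genes became 687 with no filter, 211 with the reporter as a covariate, 825 with a muscle score as a covariate and 215 without both JM833 tumors, the last added after seeing the data. With the tumors of each mouse summed, 210 genes were higher and 70 lower without overlap. Leaving out 1 tumor at a time gave 775 to 1412 higher and 282 to 650 lower genes at p below 0.05 (650 without JM1233), 0 to 0 called higher and 0 to 1 called lower, and 119 to 359 higher and 45 to 136 lower genes without overlap. Of 4782 values of the 204 named genes tested, 113 had another sign than the main fit. Counted by gene, 39 of the 204 changed sign under at least 1 alternative. List medians near 0 (peroxisome, chaperones, NRF2 targets, DNA repair, immediate early genes) turned negative with coding genes alone. No paired analysis was possible because the tumors of the 2 groups come from different mice and the labels give MaP R245W/- tumors no replicate number.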

Other observations

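The 7 MaP R172H/- tumors of the series, which carry another p53 missense mutant and were sequenced on another instrument, were not part of the comparison, and their values are given as CPM of the library total, with no test. Ifi44l was at 0 to 7.29 CPM, median 0.997, and 4 of the 7 lay above the highest MaP -/- tumor on that scale. Ifi202b was at 6.81 to 88.0 CPM, with 6 of 7 above the highest MaP -/- tumor, and Prss35 at 0.462 to 44.7 CPM, with 5 of 7 above it. Ifi206 was at 0.997 to 13.8 CPM, median 8.05, against 7.69 to 30.0 CPM in MaP -/- on that scale. Ifi213 was at 1.5 to 38.6 CPM, median 15.5, against 13.5 to 83.0 CPM. In both genes the MaP R172H/- median lay within the MaP -/- range, and no MaP R172H/- tumor lay above the highest MaP -/- tumor.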
